A study of Mus musculus with 5 samples.

Results

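Potassium channel genes, taken as the protein-coding genes whose symbol starts with Kcn in the GENCODE M21 basic annotation of GRCm38, numbered 94 of 21755 protein-coding genes on chromosomes 1 to 19 and X. They were set against the binding sites of ZFP24, a zinc finger transcription factor also named ZFP191, mapped by chromatin immunoprecipitation and sequencing (ChIP-seq), which reads the DNA that is pulled down with an antibody against the protein. The groups were wild-type oligodendrocytes (OLG) and their Zfp191-null controls, wild-type oligodendrocyte progenitor cells (OPC) and their Zfp191-null controls, and a pooled input DNA of both cell types and both genotypes without antibody, each with 1 library. All cells came from the brain of C57BL/6 mice at postnatal day 7 and were purified by immunopanning, and OLG were progenitors differentiated in culture over 5 days, with PDGF withdrawn and 40 ng/ml triiodothyronine added. The ChIP antibody was raised against ZNF24, the human name of the protein, and the labels give neither the extent of the null deletion nor whether animals were pooled.

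The values were the authors' 2 peak lists, 1752 peaks of OLG and 4643 peaks of OPC, with positions and no score or read count. Library depth is therefore unknown. The lists differ in cell type, library and peak calling at once, which cannot be told apart, and with 1 library per group no difference has a replicate check or a test. A Kcn gene was counted with a peak when a peak centre lay within 10 kb of any of its annotated starts or inside its body. Exact (Clopper-Pearson) 95% intervals cover counting error only.

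Potassium channels let potassium ions leave or enter a cell and set its resting potential and its repolarisation after depolarisation. In the oligodendrocyte lineage, voltage-gated outward currents are a known trait of progenitors, and inward rectifiers, above all the channel encoded by Kcnj10, carry much of the potassium conductance of mature cells and take up potassium released by active axons. The Kcn symbols cover voltage-gated pore subunits (Kcna to Kcnd, Kcnh, Kcnq), electrically silent subunits that modify them (Kcnf, Kcng, Kcns, Kcnv), inward rectifiers (Kcnj), two-pore-domain leak channels (Kcnk), channels opened by calcium or sodium (Kcnma, Kcnn, Kcnt) with their relative Kcnu, and auxiliary or interacting proteins (Kcnab, Kcne, Kcnip, Kcnmb, Kcnrg). ZFP24 is known to bind tandem copies of TCAT. A tract is here a perfect run of that unit of at least 12 bases, on either strand and in any phase, and a peak holds one when it lies in the 200 bp around the centre.

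Peaks with such a tract lay in 5 Kcn genes, and the sequences of 4 of them are shown because the repeat is the feature that ties these sites to the known binding sequence. Each is the plus strand of GRCm38 from 5' to 3', with the tract in capitals. The Kcnj10 sequence is chr1:172350965-172351216, the joined extent of an OLG peak and an OPC peak. The Kcnd3 sequence is the OPC peak at chr3:105663633-105663841, the Kcnk2 sequence the OPC peak at chr1:189323578-189323786 and the Kcnip1 sequence the OPC peak at chr11:33856021-33856229.
Kcnj10: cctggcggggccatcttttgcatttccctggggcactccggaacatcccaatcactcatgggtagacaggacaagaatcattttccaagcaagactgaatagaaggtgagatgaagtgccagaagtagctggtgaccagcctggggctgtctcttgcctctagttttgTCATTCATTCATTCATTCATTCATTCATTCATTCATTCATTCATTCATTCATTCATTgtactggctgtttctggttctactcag
Kcnd3: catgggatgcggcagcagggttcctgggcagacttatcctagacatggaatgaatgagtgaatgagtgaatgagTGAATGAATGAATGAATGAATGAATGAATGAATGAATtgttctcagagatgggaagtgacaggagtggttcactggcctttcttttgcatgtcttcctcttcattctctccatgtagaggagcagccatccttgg
Kcnk2: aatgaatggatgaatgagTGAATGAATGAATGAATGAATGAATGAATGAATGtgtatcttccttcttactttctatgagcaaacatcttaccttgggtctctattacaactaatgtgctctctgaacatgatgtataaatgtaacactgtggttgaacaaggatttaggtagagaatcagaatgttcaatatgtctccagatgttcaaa
Kcnip1: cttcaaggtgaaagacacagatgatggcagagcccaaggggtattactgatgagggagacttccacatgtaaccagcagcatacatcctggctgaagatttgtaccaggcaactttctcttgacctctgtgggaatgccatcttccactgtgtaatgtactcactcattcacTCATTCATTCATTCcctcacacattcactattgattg

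The tracts differed in length and in purity. That of Kcnj10 ran for 57 bases without a mismatch. In Kcnd3 a perfect run of 37 bases grew to 65 bases with 4 mismatches when neighbouring units with at most 1 mismatch each were added, and in Kcnk2 a run of 34 bases grew to 54 bases with 2 mismatches. The run of 14 bases in Kcnip1 grew to 26 bases with 2 mismatches. In all, 4 of the 5 were flanked by imperfect copies, and across all peaks with a tract that was the case for 47 of 100 in OLG and 253 of 567 in OPC. All 5 tracts lay in introns. Read on the gene's own strand, the unit was TCAT in Kcnj10 and Kcnk2 and its complement in Kcnd3 and Kcnip1.

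A site without a tract is shown as one where both lists overlapped within 1 kb of a start. It is the 94 bases common to an OLG peak and an OPC peak upstream of Kcnd2, chr6:21214702-21214795, again as the plus strand.
Kcnd2: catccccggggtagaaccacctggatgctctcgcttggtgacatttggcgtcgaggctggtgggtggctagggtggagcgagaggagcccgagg

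The share of Kcn genes with an OLG peak was above that of all protein-coding genes, and the share with an OPC peak was near it, as a description of 1 list each. An OLG peak was in reach of 17 of 94 Kcn genes, or 18.1% (10.9 to 27.4), against 7.87% of all protein-coding genes. An OPC peak was in reach of 13 Kcn genes, or 13.8% (7.57 to 22.5), against 16.3% of all protein-coding genes. Over all 21755 protein-coding genes, 4593 had a peak in at least 1 list and 17162 had none. Together 24 of the 94 Kcn genes had a peak in at least 1 list and 70 had none. Of these 24, 11 had a peak in the OLG list alone, 7 in the OPC list alone and 6 in both, so that genes with both made up 35.3% of the OLG genes and 46.2% of the OPC genes. Over all protein-coding genes the corresponding shares were 39.3% and 18.9%.

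Kcn genes also stood above all genes in OLG, and here below them in OPC, when the gene body was not counted. Within 10 kb of a start, 12 Kcn genes (12.8%) had an OLG peak, against 6.50% of all genes, and 7 Kcn genes (7.45%) had an OPC peak, against 12.8% of all genes. Within 1 kb of a start the numbers were 9 Kcn genes (9.57%) in OLG, against 4.08% of all genes, and 4 Kcn genes (4.26%) in OPC, against 8.21% of all genes. By these 3 rules more Kcn genes had an OLG peak than an OPC peak, and this order depended on the rule. With a reach of 50 kb beside the gene body there were 22 Kcn genes in OLG and 28 in OPC, and with each peak given to the nearest protein-coding start 16 in OLG and 21 in OPC. With the lower-numbered peaks of each chromosome there were 7 in each list.

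**Figure D1:**
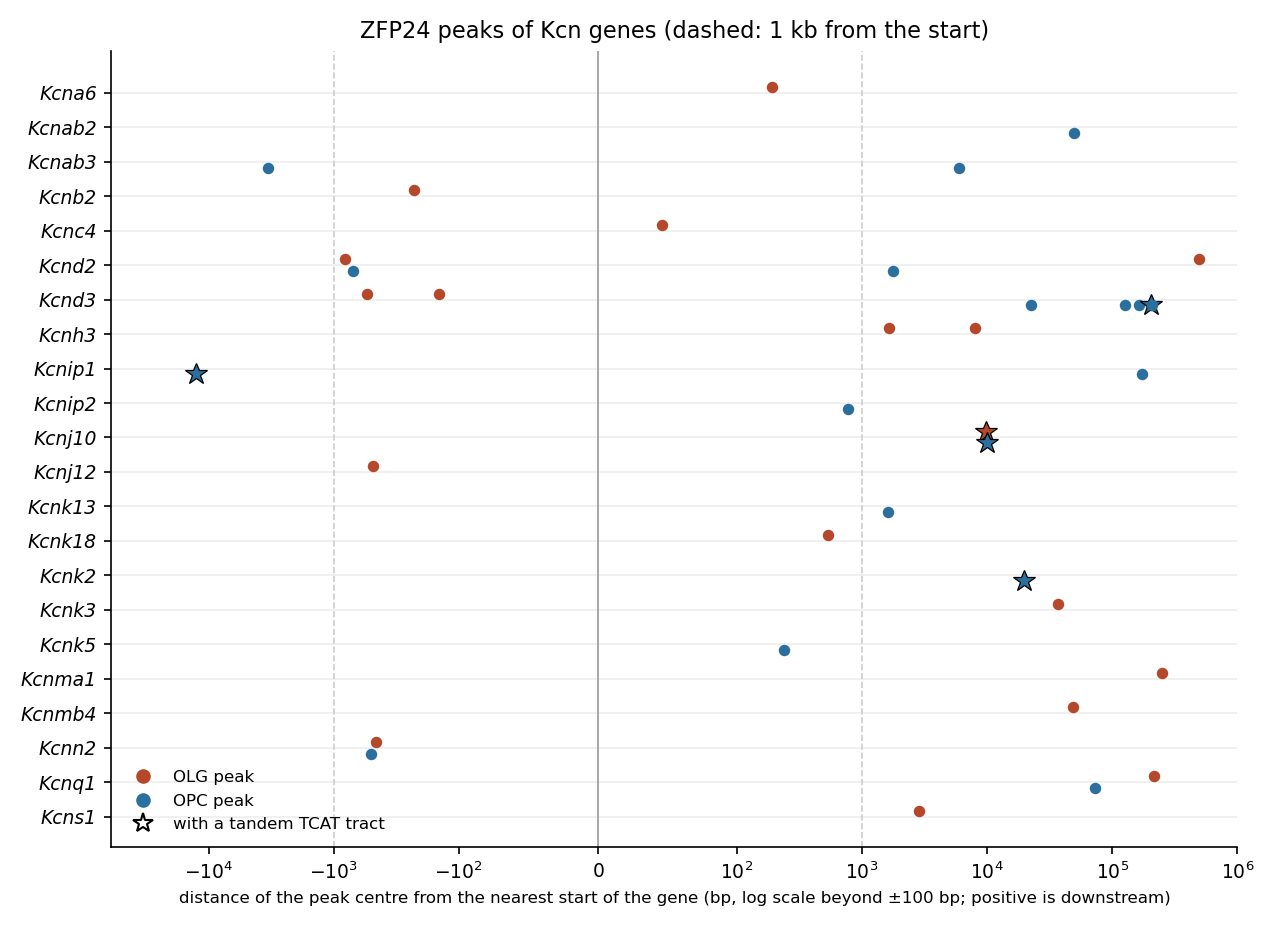
Distance of each ZFP24 peak centre from the nearest start of its Kcn gene in bp, on an axis that is logarithmic beyond 100 bp on either side, for 22 of the 24 genes with a peak. Red marks are OLG peaks and blue marks OPC peaks, stars hold a TCAT tract, and dashed lines lie 1 kb from the start. OLG marks crowd within 1 kb of the start, while OPC marks lie there at 4 genes and mostly further downstream. At Kcnd3, 3 of the 6 OPC marks lie almost on top of each other near 200 kb.

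Kcn genes were longer than most genes, and longer genes had peaks in reach more often in both lists. Their median length was 30.8 kb, against 17.4 kb for all protein-coding genes, and 24.5% of them were of 100 kb or more, against 11.4% of all genes. Among genes under 20 kb, an OLG peak was in reach of 3 of 38 Kcn genes (7.89%), against 5.59% of all genes of that length. Among genes of 20 to 100 kb the OLG shares were 24.2% of Kcn genes (8 of 33) and 8.55% of all genes, and at 100 kb and over they were 26.1% (6 of 23) and 16.5%. The OLG share of Kcn genes was the higher in each length class, under 20 kb by few genes. The part of length in these counts was not tested. In OPC the Kcn share was the lower in each class, at 2.63% against 10.3% of all genes under 20 kb, 18.2% against 18.6% at 20 to 100 kb and 26.1% against 38.0% at 100 kb and over.

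**Figure D2:**
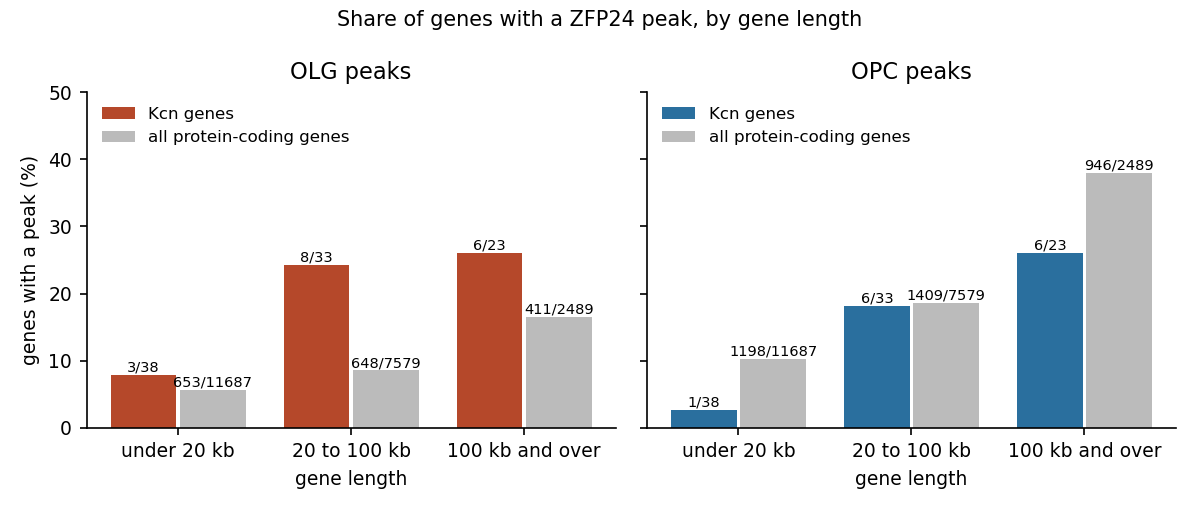
Share of genes with a ZFP24 peak within 10 kb of a start or in the gene body (per cent), by gene length, for Kcn genes (coloured) and all protein-coding genes (grey), with OLG peaks on the left and OPC peaks on the right. Numbers above the bars are genes with a peak over genes in the class. Kcn bars stand above the grey bars in all 3 OLG classes and below them in all 3 OPC classes, with 18.2% and 18.6% nearly level in the middle one.

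Voltage-gated pore subunits were the largest class and held the most genes with a peak in at least 1 list. These were 9 of 30 genes, beside 5 of 14 two-pore-domain channels and 5 of 17 auxiliary and interacting proteins. Over all protein-coding genes, 4593 of 21755 had a peak in at least 1 list. Of the 30 voltage-gated genes, 9 (30.0%) had an OLG peak and 4 (13.3%) an OPC peak, and the 4 were among the 9. Beside these and the following counts stand the 7.87% of all protein-coding genes in OLG and the 16.3% in OPC. Two-pore-domain channels had OLG peaks at 2 of 14 genes and OPC peaks at 3 others. Inward rectifiers had 2 of 15 in OLG and 1 of 15 in OPC, and channels opened by calcium or sodium had 2 of 8 in OLG and 1 of 8 in OPC. The auxiliary and interacting proteins had 1 of 17 (5.88%) in OLG and 4 of 17 (23.5%) in OPC. Among the 10 silent modifiers, 1 had an OLG peak and none an OPC peak.

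By letter, 14 of 21 subfamilies had a gene with a peak. Of Kcnd, 2 of 3 genes had an OLG peak, and in OPC it was 2 of 3 of Kcnd, 2 of 3 of Kcnab and 2 of 4 of Kcnip. Of Kcna and of Kcnh, 1 of 8 genes each had an OLG peak (12.5%, beside the 7.87% of all genes) and none an OPC peak. The 7 subfamilies without a peak in either list were Kcne with 5 genes, Kcng with 4, Kcnt and Kcnv with 2 each, and Kcnf, Kcnrg and Kcnu with 1 each. Of all 21755 protein-coding genes, 17162 had no peak in either list. Lack of a peak was thus the usual case, and it does not set such small subfamilies apart. Subfamilies differed in length as well, with medians of 222 kb in Kcnd and 215 kb in Kcnip against 6.93 kb in Kcna and 5.74 kb in Kcne, and the part of length in these counts was not tested.

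**Figure D3:**
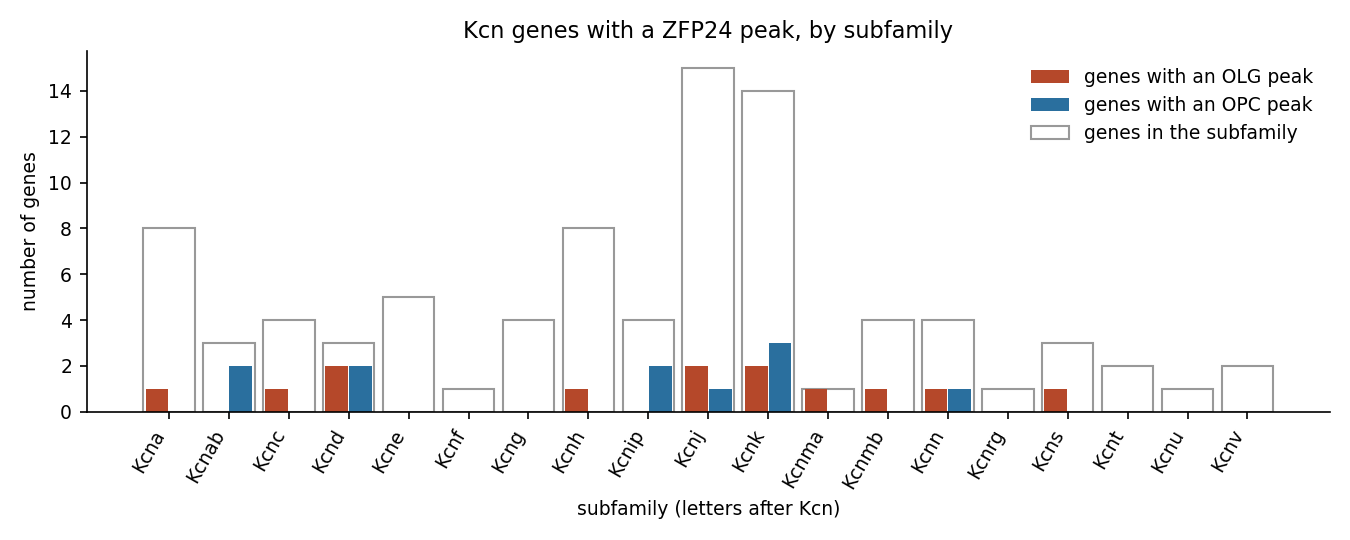
Number of genes in 19 of the 21 Kcn subfamilies (grey outline), with the number that had an OLG peak (red, left) and an OPC peak (blue, right) in reach. Kcnd shows 2 of 3 genes with a peak in each list, while 1 of 8 Kcna genes has one.

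Kcnj10, which encodes the main inward rectifier of glia, had a single site in both cell types. The OLG peak centre lay 9865 bp and the OPC peak centre 9902 bp downstream of its start, in an intron, and the peaks overlapped by 178 bp. Its 57-base tract (chr1:172351133-172351189) was the longest within reach of any Kcn gene. In the whole genome 9 tracts were as long or longer, of which 2 lay at an OLG peak and 7 at an OPC peak, this one included in each. No other tract lay within reach of Kcnj10. The other inward rectifier with a peak was Kcnj12, a classical strong rectifier, with an OLG peak 486 bp upstream (chr11:61021968-61022188) and no tract. Kcnj16, whose product joins that of Kcnj10 in one channel, had no peak in reach, and its nearest peaks were 972183 bp away in OLG and 488197 bp away in OPC.

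Kcnd2 and Kcnd3 encode pore subunits of the rapidly inactivating A-type current, and each had peaks in both lists. At Kcnd2 the OLG peak centre was 818 bp and the OPC peak centre 697 bp upstream of the start, and this is the site whose shared bases are printed above. A second OPC peak of Kcnd2 lay in a coding exon at 1780 bp, and a second OLG peak in an intron 491934 bp downstream, near the far end of the gene. Kcnd3 had OLG peaks 540 bp upstream of its first start and in an intron 145 bp before another start, while its 6 OPC peaks all lay in introns, from 22543 to 208302 bp downstream. Both OLG peaks also lay in the antisense gene Kcnd3os. OLG and OPC peaks thus did not meet at Kcnd3, and the closest pair was 28384 bp apart. The tract was in the fifth of the 6 OPC peaks, 680 bp from its neighbour and 3347 bp from the last. Kcnd3 was singled out after its values were seen. As many OPC peaks were within reach of 7 protein-coding genes in all, all of them among the 998 genes of at least 200 kb, of which they were 0.701%.

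Some partners of A-type channels had peaks as well. In OPC they were 2 of 4 Kcnip genes and 1 of 3 listed partners outside the Kcn symbols, beside 16.3% of all genes. In OLG they were 0 of 4 and 1 of 3, beside 7.87% of all genes. Kcnip1 and Kcnip2, calcium-binding proteins that attach to these channels, had OPC peaks and no OLG peak. Those of Kcnip1 lay in introns, 1 with the 14-base tract 12540 bp upstream of the nearest of its starts and 1 without a tract 171697 bp downstream. That of Kcnip2 lay in an intron at 770 bp. Of the transmembrane partners, Dpp10 had an OLG peak 257 bp upstream and an OPC peak in an intron at 48068 bp, neither with a tract.

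Other voltage-gated genes had an OLG peak at the start. Kcnb2, a pore subunit of the slow delayed rectifier, had one 227 bp upstream (chr1:15286917-15287137). Kcnc4, a subunit of fast, high-threshold channels, had an OLG peak in the 5' untranslated region at 46 bp (chr3:107459396-107459616). Kcna6, a subunit of low-threshold delayed rectifiers, had an OLG peak in the 5' untranslated region 190 bp from the nearest start (chr6:126739851-126740071), where the antisense gene Gm26673 also runs. These 3 peaks had a GC content between 69.0% and 70.5% in the 200 bp around the centre, and none held a tract.

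Further peaks of voltage-gated genes lay inside the gene. Kcnh3, of the ether-a-go-go-like family, had 2 OLG peaks, both in coding exons, at 1642 bp and 7958 bp. Kcnq1, known from the slow repolarising current of the heart, had an OLG peak in an intron at 214609 bp and an OPC peak in an intron at 72840 bp, 141769 bp apart. Another OPC peak lay nearer to a start of Kcnq1, 42495 bp upstream, and so out of reach. Kcns1, a silent modifier subunit, had an OLG peak in a coding exon at 2825 bp. Kcna1, Kcna2, Kcna4, Kcna5 and Kcnq3 had no peak in reach in either list. The nearest to any of these was an OPC peak 28342 bp from the start of Kcna2.

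**Figure D4:**
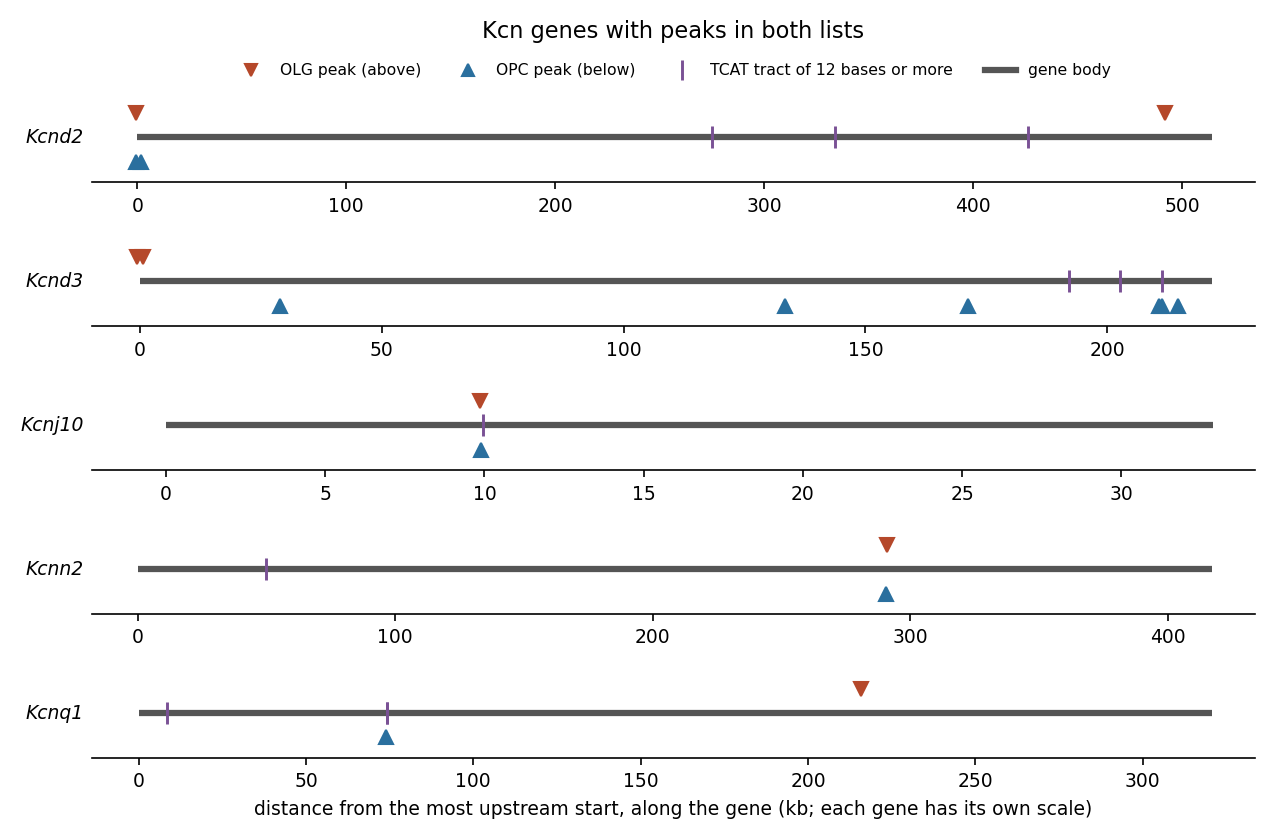
Of the 6 Kcn genes with peaks in both lists, 5 are drawn from the most upstream start along the gene in kb, each on its own scale. Red triangles above are OLG peaks, blue triangles below OPC peaks, purple ticks TCAT tracts of 12 bases or more and the grey bar the gene body. OLG and OPC marks coincide at Kcnj10, Kcnn2 and the start of Kcnd2, and lie apart at Kcnd3 and Kcnq1.

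The last site common to both lists was at Kcnn2, which encodes a small-conductance calcium-activated channel. Its OLG peak centre was 462 bp and its OPC peak centre 501 bp upstream of the nearest start, in a coding exon of a longer transcript, and the peaks overlapped by 176 bp. Neither held a tract, and their GC contents were 73.0% and 72.5%. Both peak centres also lay in a transcribed processed pseudogene, AC121957.1. Kcnma1, the pore subunit of the large-conductance calcium-activated channel, had an OLG peak in an intron 250162 bp from the nearest start. Another OLG peak lay nearer to a start of Kcnma1, 17566 bp upstream, and so out of reach. The beta subunit gene of this channel, Kcnmb4, had an OLG peak in an intron at 48792 bp.

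No Kcnk gene had a peak in both lists, with OLG peaks at 2 of 14 genes and OPC peaks at 3 of 14. Over all protein-coding genes, 672 of the 4593 with a peak had one in both lists. Kcnk18, a leak channel of sensory neurons that calcineurin activates, had an OLG peak in a coding exon at 538 bp and Kcnk3, an acid-sensitive channel, one in the 3' untranslated region at 36585 bp. In OPC, Kcnk5, which responds to alkaline pH, had a peak in the 5' untranslated region at 237 bp (chr14:20181468-20181676), Kcnk13, a channel also known from microglia, one in a coding exon at 1617 bp, and Kcnk2, a stretch- and lipid-sensitive channel, the intronic peak with the 34-base tract at 19673 bp. Kcnk1 had none. The beta subunit genes Kcnab2 and Kcnab3 had OPC peaks as well, in an intron at 49215 bp, and 3331 bp upstream and in the 3' untranslated region at 5974 bp. The upstream one lay inside Cntrob, a centriole gene, 848 bp from that gene's start.

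The Kcn peaks of the lists differed in where they lay. Of 20 OLG peaks of Kcn genes, 10 (50%) were within 1 kb of the start of some protein-coding gene, against 47.9% of all OLG peaks, and of 21 OPC peaks 5 (23.8%), against 35.5% of all OPC peaks. Coding exons of some protein-coding gene held 5 of the 20 OLG peaks (25.0%), against 14.4% of all OLG peaks. They held 4 of the 21 OPC peaks (19%), against 7.90% of all OPC peaks. Coding exons of the Kcn gene itself held 5 and 3. Kcn peaks were picked for lying in or near a gene, so a higher exon share partly follows from the rule. A protein-coding gene body held 15 of the 20 OLG peaks, against 1263 of all 1752. In OPC it held 20 of the 21, against 2980 of all 4643. For 3 of the 20 OLG peaks and 7 of the 21 OPC peaks the nearest protein-coding start was that of another gene, such as Ddx20 for 5 OPC peaks of Kcnd3. Their median GC content was 62.2% in OLG and 48.0% in OPC, against 59.0% of all OLG peaks and 51.5% of all OPC peaks. The starts themselves were rich in GC. Their median was 63.5% at the 9 Kcn genes with an OLG peak within 1 kb and 65.2% at the 4 with an OPC peak there. It was 62.0% over all Kcn genes and 58.5% over all protein-coding genes. The part of GC content in the counts was not tested.

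A tract was held by 1 of the 20 OLG peaks, or 5.00% (0.127 to 24.9), against 5.71% of all OLG peaks, and by 5 of the 21 OPC peaks, or 23.8% (8.22 to 47.2), against 12.2% of all OPC peaks. Windows 2 kb to either side held none in 40 for OLG and 42 for OPC. Over all peaks, a tract was in 2 of 3504 such windows for OLG and 14 of 9286 for OPC. At the Kcn peaks, the middle of the tract lay between 12 and 74.5 bp from the centre in OPC and 86.0 bp away in the OLG peak of Kcnj10. No tract was at a Kcn peak within 1 kb of a start.

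Most TCAT tracts near Kcn genes had no peak. The reach of the 94 genes covered 11.4 Mb and held 90 tracts at 33 genes, or 7.89 per Mb, against 7.15 per Mb in the reach of all protein-coding genes. An OLG peak lay at 1 of the 90 (1.11%), against 1.08% of tracts at all genes, and an OPC peak at 5 (5.56%), against 5.87%. By length, 3 of the 7 Kcn tracts of 32 bases or more were at an OPC peak, or 42.9% (9.90 to 81.6), against 24.5% of such tracts at all genes, and 1 of 62 tracts of 12 to 15 bases, or 1.61%, against 2.40%. Long tracts without a peak were those of 43 bases at Kcnc2, 38 bases at Kcnh5, 35 bases at Kcnip1 and 33 bases at Kcnab2. The 35-base tract (chr11:33672030-33672064) lay beside the Kcnip1 OPC peak at chr11:33671660-33671868, outside the 200 bp around its centre. Doubled TCATTCAT, on either strand, was in 1 of 94 promoter sequences of the 69 Kcn genes that matched the RefSeq table of GRCm38.p6 (1.06%), against 0.982% of those of all protein-coding genes in it.

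**Figure D5:**
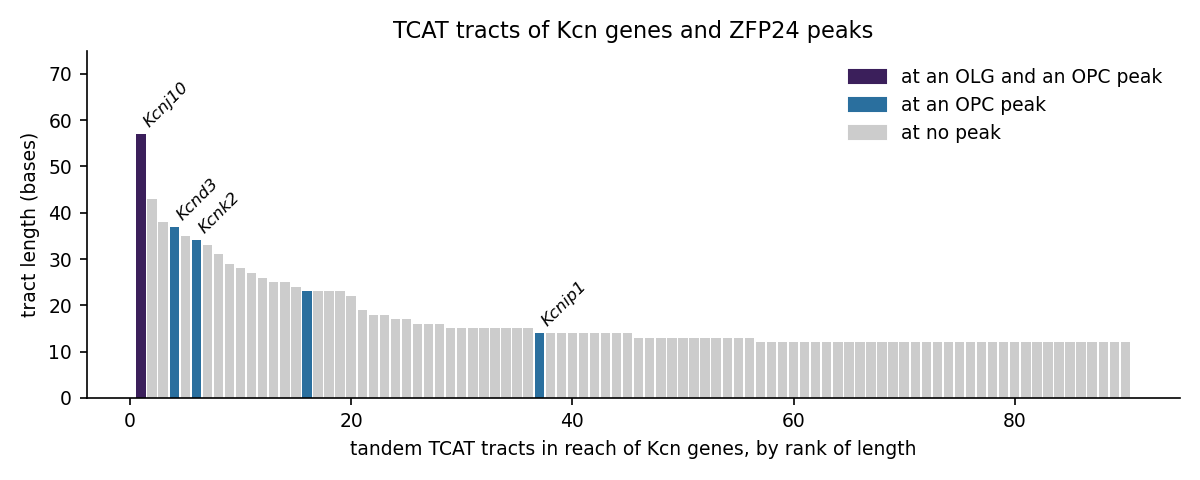
Length in bases of the 90 tandem TCAT tracts in reach of Kcn genes, in order of length. The purple bar is at an OLG and an OPC peak, blue bars are at an OPC peak and grey bars at no peak. The longest tract, of 57 bases at Kcnj10, is the one at peaks of both lists, and tracts of 43 and 38 bases stand without a peak.

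Genes of potassium handling and channel partners outside the Kcn symbols were counted by the same rule. Of these 55 genes, 5 (9.09%) had an OLG peak and 14 (25.5%) an OPC peak, with Dpp10 alone in both. Beside these stand the 7.87% and 16.3% of all genes, where the OPC share is the higher too. The part of gene length in these counts was not tested. The sodium-potassium pump and its regulators had 2 of 9 in OLG, among them Atp1b2, the beta subunit best known from glia, at 4 bp, and 4 of 9 in OPC, among them Atp1b1 at 531 bp, and Fxyd7 and Fxyd1, which share a peak with a 29-base tract. Scaffold genes of the node and juxtaparanode had 1 of 16 in OLG, Cntn1 at 713 bp, and 5 of 16 in OPC, among them Epb41l3 at 5 bp, Ank2 at 234 bp and Dlg2 at 340 bp as well as Ank3 and Nfasc. Of 5 potassium-chloride cotransporter genes, 2 had an OPC peak, among them Slc12a5 at 1497 bp, and none an OLG peak. Of 9 genes of the glial syncytium, 1 had an OLG peak and 1 an OPC peak, the OPC one at Dtna, a dystrobrevin gene, in an intron at 136295 bp. Tmem38a, which encodes an intracellular cation channel, had an OPC peak 9098 bp upstream, nearer to the start of Smim7. The 4 Hcn genes, 4 genes of BK gamma subunits and 2 of sulfonylurea receptors had none.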

How the data were processed

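ChIP-seq libraries of 75 nt single-end reads were made from wild-type and null OLG and OPC and from pooled input, per the labels' protocols. Of BWA and HOMER 4.8.3 on mm10, which the submitters' processing notes name, only HOMER has a version there. Neither the calling options nor the part of null and input libraries in them is given in the labels. The authors deposited 2 peak lists of positions, 221 bp wide in OLG and 209 bp in OPC, so depth is unknown.

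Positions (1-based) were compared with GRCm38.p6, where 0 peaks ran past a chromosome end, and with GENCODE M21 basic genes, using every annotated transcript start. Python 3.11.15, scipy 1.17.1 and pysam 0.24.0 were used. Peaks overlapped when they shared at least 1 bp. Gene reach and tract search were tested on simulated data. No significance test was made. The text names every Kcn gene with a peak, 12 genes discussed in this lineage in any case, some of which also have a peak, and partner genes with a peak. Some genes that this rule names are not reported here. Members and lists were chosen with earlier results of these data known. Other settings were other distances, gene bodies, nearest genes, tract lengths, windows and lower-numbered peaks. The reads of null and input libraries were not used here.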

Additional observations from a re-analysis of the deposited data

How the results depend on the processing

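The OLG count of 17 Kcn genes stayed within 1.5 times under 7 of 9 other settings, and the Kcn share was above that of all genes under all 9. The exceptions in size were 7 genes with the lower-numbered peaks of each chromosome and 9 within 1 kb of a start. The OPC count of 13 became 28 with a reach of 50 kb, 21 with each peak given to the nearest start, 7 within 10 kb of a start without the gene body, 7 with the lower-numbered peaks and 4 within 1 kb of a start. Its share was below that of all genes in 7 of 9 settings and above it in the gene body alone (13.8% against 12%) and with the nearest start (22.3% against 16.8%). The cause was not tested. The setting of 1 kb was chosen after seeing the data. The labels do not say what the number in the peak names means. The tract counts of 1 OLG and 5 OPC peaks stayed within 1.5 times in 4 of 4 settings each, although the OLG share was above that of all OLG peaks with tracts of at least 16 bases (5.00% against 4.45%). In OPC, a length of 8 bases added a peak of Kcnd3 and a window of 400 bp a peak of Kcnq1. Depth is unknown, so a gene without a peak is only one at which the list holds none.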

Other observations

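The 70 Kcn genes without a peak in reach lay at a median of 354 kb from the nearest OLG peak, with a range of 15.2 to 4459 kb, and of 182 kb from the nearest OPC peak, with a range of 13.4 to 5247 kb.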
